A study of Rattus norvegicus with 15 samples.

Results

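Sox2, Pdx1, Cdx2, Gata4, Gata5, Gata6 and Onecut2 are transcription factors whose presence marks regions of the digestive tract, and their transcripts were followed here through the mucosa of 5 consecutive segments of the rat gut. The members were chosen by name, as array probes that carry the symbol of one of these 7 genes. Probes of 6 genes were measured, 9 probes in all of 41012 on the array, and all 9 were among the 38798 probes that passed the filter for testing. A probe passed if the scanner software flagged it well above background in all 3 samples of at least 1 segment. Sox2 and Onecut2 passed through the stomach alone, where that flag was set less strictly and where Sox2 was highest. Gata6 had 4 probes and the other measured genes 1 each. Gata5 was not analysed here. The Sox2 and Onecut2 probes carried provisional names in the scanner files and were matched through the older symbols that the RefSeq gene table of assembly GRCr8 lists for these genes.

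Total RNA came from suspensions of mucosal cells of Sprague Dawley rats, with 3 samples each of stomach, duodenum, jejunum, ileum and colon and 15 in all. The labels call the rats male, except for ileum 3, which carries no strain or sex. They give no treatment or genotype, and age is not given in the sources used here. Per the series text the gut was everted, digested briefly with pronase and elutriated, in 3 isolations that are called independent. Nothing ties an isolation to an animal, and the spread behind each p-value is that between isolations. Samples of a segment also differed in array, dye or scan day, which that spread includes. Each sample was read in 1 dye channel of a whole-genome rat array.

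SOX2 is a high-mobility-group factor of the embryonic foregut that persists in the stomach. CDX2 is a caudal-type homeobox factor that specifies and maintains the intestinal epithelium. PDX1 is a homeobox factor of the pancreas, the gastric antrum and the duodenum. GATA4, GATA5 and GATA6 are zinc finger factors of endoderm and mesoderm, and in mice GATA4 keeps the jejunum distinct from the ileum. ONECUT2 is a cut-homeodomain factor of liver, pancreas and duodenum.

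The Sox2 probe is shown because its name in the files was provisional, so that its letters let the match by older symbol be checked. It was given identically in the 7 scanner files that list probe sequences, was not placed on a transcript here, has 1 of 3 forward reading frames free of stop codons, and is printed in lower case 5′ to 3′.
Sox2 probe: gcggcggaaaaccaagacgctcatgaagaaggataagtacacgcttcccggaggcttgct

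The bases before the gene starts of Sox2, Cdx2 and Pdx1 are shown because these 3 members differed between stomach and duodenum. They are RefSeq sequences of build GRCr8, read 5′ to 3′ on the strand of the gene: chr2:119464881-119465130 on the plus strand for Sox2, chr12:12762654-12762768 on the plus strand for Cdx2 and chr12:12799157-12799406 on the minus strand for Pdx1. The Cdx2 window is shorter, since a longer transcript record of the gene starts within the tabulated window. Cdx2 and Pdx1 are neighbours on chromosome 12, with no gene listed between them. Capitals mark TTTAT or its reverse complement ATAAA, the core of the sequence that CDX factors bind.
Sox2 upstream: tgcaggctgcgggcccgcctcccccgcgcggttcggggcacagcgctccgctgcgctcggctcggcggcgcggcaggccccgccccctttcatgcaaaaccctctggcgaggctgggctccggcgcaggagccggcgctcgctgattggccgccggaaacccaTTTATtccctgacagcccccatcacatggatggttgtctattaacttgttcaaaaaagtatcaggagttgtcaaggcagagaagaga
Cdx2 upstream: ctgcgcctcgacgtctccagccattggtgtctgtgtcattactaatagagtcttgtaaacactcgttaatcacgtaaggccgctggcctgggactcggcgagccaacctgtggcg
Pdx1 upstream: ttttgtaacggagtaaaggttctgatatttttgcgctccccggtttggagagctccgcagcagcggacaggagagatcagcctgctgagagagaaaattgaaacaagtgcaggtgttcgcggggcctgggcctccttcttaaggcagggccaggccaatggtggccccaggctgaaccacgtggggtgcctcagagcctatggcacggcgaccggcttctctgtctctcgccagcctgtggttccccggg
The Sox2 window held 1 match, and 39.3% of 33469 promoter windows of that length held at least 1. The Pdx1 window, of the same length as that of Sox2, held none. The 115 bases of Cdx2 held none either, against 23.6% of all windows cut to the Cdx2 length. The GATA core GATAA, or TTATC on the other strand, was in none of the 3 windows. It was in 23.5% of all windows of 250 bases and in 12.7% of those cut to the Cdx2 length. The RefSeq table used here held no window for Gata4 or Onecut2.

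Levels are given as scaled intensity, the processed signal of a probe as a percent of the 75th percentile of all probes in that sample. Levels of different probes are not comparable, because probes differ in brightness. Differences are the proximal minus the distal segment on the log2 scale with the standard error (SE) of a limma fit over all 15 samples, and a difference was called at an adjusted p under 0.05 over all probes tested. No value of a member reached saturation. Samples of one segment correlated at 0.914 to 0.987 across probes, which are not independent replicates. The share of probes that the scanner software called well above background was 95.4% to 97.1% in stomach samples, 64.7% to 92.5% in duodenum, 52.4% to 89.6% in jejunum, 44.4% to 85.0% in ileum and 74.5% to 90.6% in colon. The flag was set less strictly for the stomach, so a second limit, the 95th percentile of the negative control spots of each sample, was applied alike to all. Each stomach and ileum sample had its own array. The 3 colon samples came from scans of a slide with 1 barcode, so slide and colon cannot be told apart. Duodenum and jejunum shared scan days and software version. Every other scan day held samples of 1 segment, and software version differed between segments except that ileum 1 shared that of duodenum and jejunum. Scan day and segment can therefore not be told apart, except between duodenum and jejunum. With scan day as a random block, no call of Sox2, Pdx1, Cdx2 or Gata4 was lost. Such a block cannot separate day from segment where each day held 1 segment. The median over all probes tested was 0.29 for stomach minus duodenum, 0.26 for stomach minus jejunum, 0.21 for stomach minus ileum and 0.23 for stomach minus colon, and within 0.13 of 0 between the other segments, and the differences below should be read against it.

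**Figure D1:**
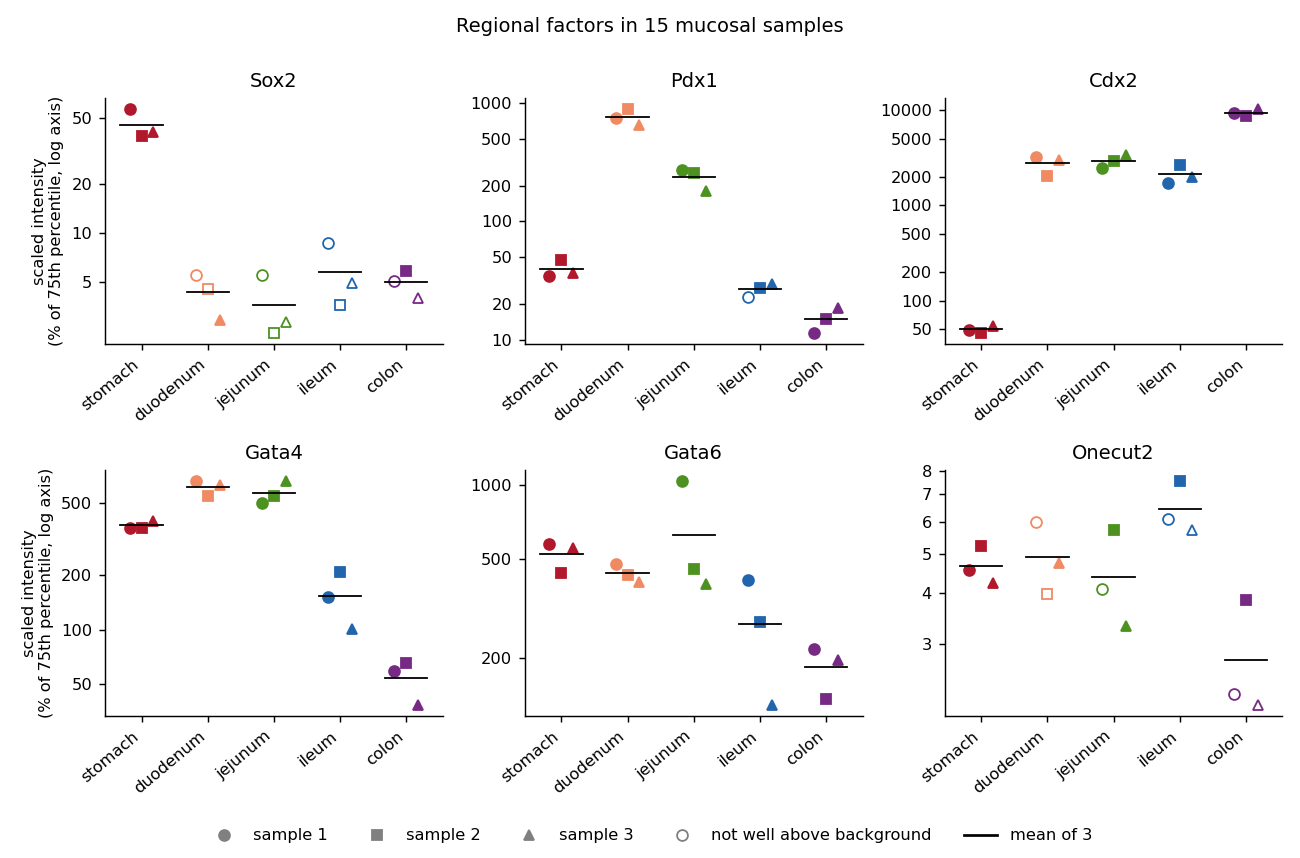
Scaled intensity (percent of the 75th percentile of the sample, log axis) of 6 regional factors in 15 samples, 3 per segment from stomach to colon. Symbols are samples 1 to 3, open symbols were not well above background by the scanner flag, and black bars are means. Sox2 was highest in the stomach (39.3 to 56.8), Pdx1 peaked in the duodenum (654 to 883) and Cdx2 was lowest in the stomach (45.8 to 54.3) and highest in the colon.

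The foregut factor Sox2 was present in the stomach and near background in all other segments. Its scaled intensity was 56.8, 39.3 and 41.4 in stomach 1 to 3, then 5.55, 4.57 and 2.96 in duodenum, 5.56, 2.45 and 2.88 in jejunum, 8.70, 3.65 and 4.93 in ileum and 5.12, 5.83 and 4.03 in colon. No stomach sample overlapped any other. The scanner flag placed all 3 stomach samples, 1 duodenal, 1 colonic and no jejunal or ileal sample well above background. By the negative control limit, all samples but jejunum 1 and ileum 1 were above it. Sox2 was 9.96-fold higher in stomach than in duodenum (log2 difference 3.32 ± 0.44, adjusted p = 3.31e-05). It was at least 8.16-fold higher than in jejunum (adjusted p = 6.64e-06) and at least 4.35-fold higher than in ileum (adjusted p = 5.21e-05). These are bounds, taken against the dimmest probe well above background in each sample of the lower segment. Against colon it was 8.52-fold higher (3.09 ± 0.51, adjusted p = 0.000234), a difference of 0.76 with normexp background correction (adjusted p = 0.105). Among the 6 differences between the 4 distal segments, limma called none (adjusted p = 0.382 to 0.942). The called step of Sox2 lay between stomach and duodenum, and no further step was detectable so near background. Sox2 passed the filter for testing through the stomach alone, so its calls rest on the segment that admitted it.

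Cdx2 showed the opposite step at the same border and a further one at the colon. Its scaled intensity was 49.7, 45.8 and 54.3 in stomach, 3231, 2031 and 2997 in duodenum, 2431, 2938 and 3383 in jejunum, 1707, 2665 and 1976 in ileum and 9298, 8585 and 10116 in colon. Stomach samples lay below all others, colon samples above all others, and the 3 small bowel segments overlapped. All 15 samples were well above background, those of the stomach included. Cdx2 was 53.9-fold lower in stomach than in duodenum (-5.75 ± 0.25, adjusted p = 7.04e-11) and 186-fold lower than in colon (-7.54 ± 0.28, adjusted p = 3.66e-11). Within the small bowel no difference was called: duodenum minus jejunum was -0.11 (95% interval -0.53 to 0.32), and jejunum minus ileum was 0.47 (-0.05 to 0.99). The ileum was 4.44-fold lower than the colon (-2.15 ± 0.30, adjusted p = 0.000145), the jejunum 3.21-fold lower (adjusted p = 0.000462) and the duodenum 3.45-fold lower (adjusted p = 0.000244). Normexp correction left the ileum -0.92 below the colon, and that difference was not called (adjusted p = 0.102). In a fit on jejunum and colon alone theirs was not called either (-1.65, adjusted p = 0.0529).

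Pdx1 was highest in the duodenum, second in the jejunum and low but mostly above background elsewhere. Its scaled intensity was 34.8, 47.2 and 36.8 in stomach, 744, 883 and 654 in duodenum, 270.2, 256 and 181 in jejunum, 23.2, 27.4 and 29.8 in ileum and 11.4, 15.1 and 18.5 in colon. The samples of the 5 segments did not overlap. Pdx1 was 19.3-fold lower in stomach than in duodenum (-4.27 ± 0.29, adjusted p = 1.17e-08). It was 8.75-fold higher in jejunum than in ileum (3.13 ± 0.29, adjusted p = 1.67e-05). Duodenum and colon stood furthest apart, 51.2-fold (5.68 ± 0.33, adjusted p = 6.04e-09). Stomach exceeded colon by 2.65-fold (adjusted p = 0.00356), but only by 0.19 on the log2 scale with normexp correction (adjusted p = 0.588). Stomach minus ileum (0.56, 95% interval -0.04 to 1.17, adjusted p = 0.177) and ileum minus colon (0.85 ± 0.35, adjusted p = 0.113) were not called.

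Duodenal and jejunal samples shared arrays in pairs, in opposite dyes, so that the comparison could also be made within each array. Pdx1 was 4.10-fold higher in duodenum 1 than in jejunum 3, 3.27-fold higher in duodenum 2 than in jejunum 1 and 2.55-fold higher in duodenum 3 than in jejunum 2. The fit over all samples gave a 3.26-fold difference (1.70 ± 0.23, adjusted p = 0.0014). The call did not survive without duodenum 1 (1.63, adjusted p = 0.135) or without jejunum 3 (1.37, adjusted p = 0.191). Pdx1 was the only member called in this comparison, in which 0.549% of all probes tested were called. The duodenum minus jejunum ratio of Cdx2 lay between 0.836 and 1.02 on the 3 arrays and that of Gata4 between 0.997 and 1.16.

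**Figure D2:**
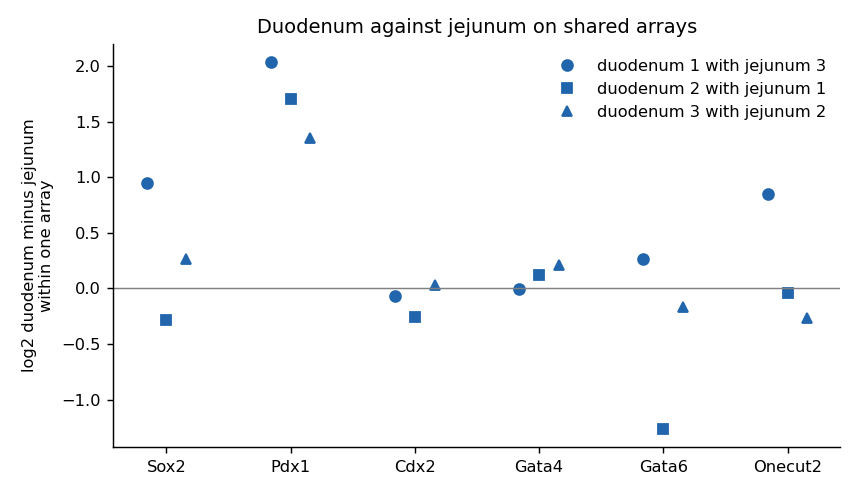
Log2 difference, duodenum minus jejunum, of 6 members (x axis) on each of the 3 arrays that carried a sample of both segments. Symbols are the arrays and the grey line marks no difference. Pdx1 was 1.35 to 2.04 higher in duodenum on all 3 arrays, while the other members lay around the line or differed in sign between arrays.

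Gata4 was high from stomach to jejunum and lower in ileum and again in colon. Its scaled intensity was 368, 366 and 399 in stomach, 664, 549 and 636 in duodenum, 504, 549 and 666 in jejunum, 151, 209 and 101 in ileum and 59.5, 65.1 and 38.5 in colon. All 15 samples were well above background, and ileal and colonic samples overlapped neither each other nor any proximal sample. Gata4 was 3.86-fold higher in jejunum than in ileum (1.95 ± 0.29, adjusted p = 0.0016) and 2.78-fold higher in ileum than in colon (1.47 ± 0.35, adjusted p = 0.00935). Some markers of other cells moved with the second step, where 15% of all probes tested were called. Of 9 markers of fibroblasts and smooth muscle, 4 were called higher in ileum, led by Col1a2 at 10.9-fold, and none lower. Col1a1 (-1.039), Des (-1.003), Myh11 (-0.525) and Lum (-0.231) leaned lower in ileum without a call. The 9 markers summed to 606.5 to 786.1 in ileum and 530.4 to 558.5 in colon. Of 8 markers of T cells and mast cells, 4 were called higher in ileum, led by Gzma at 20.7-fold, and none lower. Tpsab1 (-0.877) leaned lower in ileum without a call. The 8 markers summed to 2111 to 4007 in ileum and 665.4 to 831.2 in colon. The part of these cells in the second Gata4 step was not tested. In a fit on ileum and colon alone that step was 1.31 and was not called (adjusted p = 0.16). Between the ends, duodenum exceeded colon 11.6-fold (3.53 ± 0.33, adjusted p = 1.41e-06). Duodenum and jejunum did not differ beyond their spread (0.11, 95% interval -0.39 to 0.61). The stomach was 1.63-fold lower than the duodenum without a call (-0.70 ± 0.29, adjusted p = 0.0927). That difference was called with median scaling (-0.93, adjusted p = 0.0359) and in a fit on those 2 segments (-0.71, adjusted p = 0.0437).

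The 4 probes of Gata6 gave different accounts of the tract. A_44_P445300, the brightest, measured 577, 442 and 553 in stomach, 478, 432 and 406 in duodenum, 1037, 455 and 397 in jejunum, 412, 278 and 129 in ileum and 217, 136 and 196 in colon. Jejunum 1 stood well above the other jejunal samples, and ileal samples overlapped those of duodenum, jejunum and colon. No neighbouring segments were called for this probe, with jejunum minus ileum nearest at 1.34 ± 0.39 (adjusted p = 0.0623). Stomach exceeded colon 2.67-fold (1.42 ± 0.45, adjusted p = 0.0219) and jejunum exceeded colon 2.93-fold (1.55 ± 0.45, adjusted p = 0.0186). Of these, the first was lost with median scaling or without stomach 3 (adjusted p up to 0.119) and the second in a fit on those 2 segments (adjusted p = 0.118). Stomach minus ileum (1.20 ± 0.39, adjusted p = 0.0331) lost its call under 10 of 29 alternatives, with adjusted p up to 0.167, among them without stomach 1 or 3 or ileum 2 or 3. Duodenum minus colon (1.29 ± 0.44, adjusted p = 0.0452) lost it under 15 of 29, with adjusted p up to 0.116, among them without any one of the duodenal or colonic samples. Over the 15 samples this probe correlated with Gata4 at 0.784, a description over samples that share their segments.

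A_44_P415349 was 3.94-fold higher in stomach than in colon (1.98 ± 0.36, adjusted p = 0.000566), a call kept under all 28 alternatives. It was 2.40-fold higher in ileum than in colon (1.26 ± 0.38, adjusted p = 0.0334), a call lost under 10 of 28, with adjusted p up to 0.227. Its levels ran from 107 to 150.0 in stomach, from 68.3 to 116 in duodenum, from 69.5 to 82.5 in jejunum, from 65.8 to 125 in ileum and from 28.1 to 40.3 in colon, so that all colon samples lay lowest. A_44_P868714 went the other way in the colon, with 155 to 195 in jejunum against 263 to 409 in colon, and jejunum minus colon was -1.05 ± 0.37 (adjusted p = 0.0456), a call lost under 15 of 28 alternatives, with adjusted p up to 0.166. Stomach samples, at 350.0 to 420.2, overlapped those of the colon (0.12, adjusted p = 0.83). The stomach was 2.25-fold higher than the jejunum (1.17 ± 0.31, adjusted p = 0.0117, lost under 4 of 28 with adjusted p up to 0.0757). A_44_P415354, with levels of 45.0 to 116 throughout, did not vary in limma's F test over the 5 segments (adjusted p = 0.762). Correlations between pairs of these probes ran from -0.161 to 0.665 over the 15 samples. A border at which Gata6 changes is therefore not given by these probes together, and colon calls of opposite sign stood side by side.

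**Figure D3:**
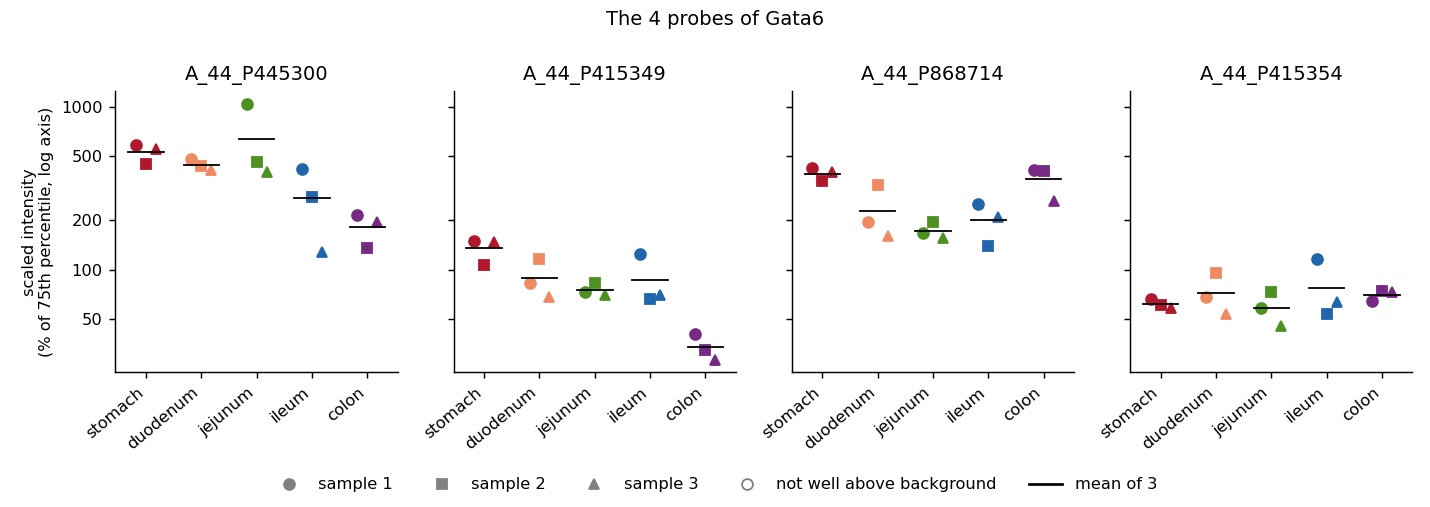
Scaled intensity (percent of the 75th percentile of the sample, log axis) of the 4 Gata6 probes in 15 samples, 3 per segment from stomach to colon, with black bars at the means. The colon was lowest with A_44_P415349 (28.1 to 40.3), while with A_44_P868714 it was near the stomach (263 to 409 in colon).

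Onecut2 stayed near background everywhere. Its scaled intensity was 4.57, 5.23 and 4.25 in stomach, 5.99, 3.98 and 4.76 in duodenum, 4.09, 5.73 and 3.32 in jejunum, 6.09, 7.54 and 5.71 in ileum and 2.27, 3.86 and 2.14 in colon. Colon samples lay lowest, with 1 of them above a jejunal sample. All 3 stomach samples were well above background by their own, laxer flag, 2 in jejunum and 1 in each other segment. Limma's F test found no difference over the segments (adjusted p = 0.359) and none of the 10 pairwise differences was called. The largest was ileum minus colon (1.12 ± 0.52, adjusted p = 0.162).

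Taking the borders in order, 3 of the 6 measured members were called between stomach and duodenum, Sox2 higher and Pdx1 and Cdx2 lower in stomach, where 23.7% of all probes tested were called. Sox2 was tested only because its stomach samples, where it was highest, passed the filter. Between duodenum and jejunum Pdx1 alone was called, against 0.549% of all probes. Between jejunum and ileum 2 were called, Pdx1 and Gata4, both higher in jejunum, against 4.04% of all probes. Between ileum and colon 2 were called, Gata4 higher and Cdx2 lower in ileum, against 15% of all probes. Between segments that are not neighbours, stomach minus jejunum called 3 members (22% of all probes), stomach minus ileum 4 (23.3%), stomach minus colon 5 (35.2%), duodenum minus ileum 2 (2.71%), duodenum minus colon 4 (23.1%) and jejunum minus colon 4 (25.1%). The F test called 5 of the 6 members, against 42.8% of all probes. In these counts Gata6 stands by its brightest probe alone. That probe was called in stomach minus ileum and in stomach, duodenum and jejunum minus colon, and the other Gata6 probes did not all share these calls. Comparisons of neighbours share the samples of the middle segment, so their values are given side by side and not set against each other.

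**Figure D4:**
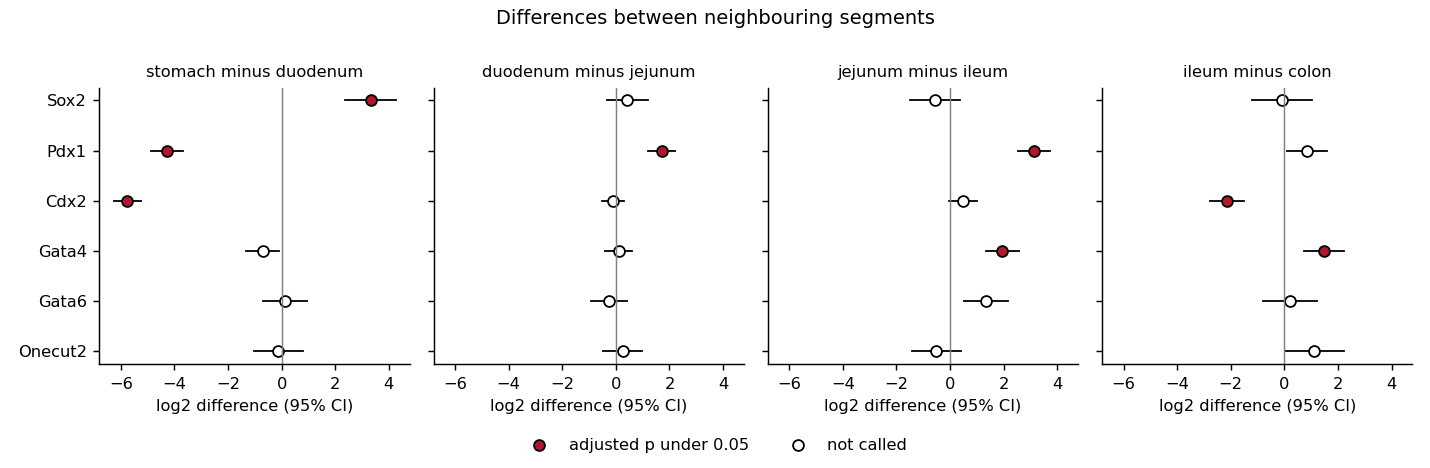
Log2 differences between neighbouring segments, proximal minus distal, for 6 members, with 95% intervals of the limma fit over 15 samples and filled points where the adjusted p was under 0.05. Stomach minus duodenum was 3.32 for Sox2, -4.27 for Pdx1 and -5.75 for Cdx2.

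Levels placed the members in different orders. Sox2 was highest in stomach, and its other 4 segments did not differ beyond their spread. Pdx1 ran from duodenum to jejunum to stomach, ileum and colon, where stomach and ileum, and ileum and colon, did not differ beyond their spread. Cdx2 ran from colon to the 3 small bowel segments, which did not differ from each other, to stomach. Gata4 ran from duodenum and jejunum, which did not differ, to stomach, not called against either, then ileum and colon. Measured over the 15 samples, the probes most like each member were, with Pearson's r, Pik3c2g (0.979), Vom2r31 (0.974) and Cdo1 (0.971) for Sox2 and Ugt2b7 (0.987), Tmprss15 (0.977) and Adh4 (0.968) for Pdx1. For Cdx2 they were Cldn7 (0.985), Itln1 (0.985) and Prss30 (0.983). For Gata4 they were Rgn (0.963), Parp6 (0.961) and Or4p18b (0.958), for the brightest Gata6 probe Kcnj3 (0.978), Ubn2 (0.955) and Ep400 (0.942), and for Onecut2 Sdro (0.917), Slc25a3 (0.908) and Plekhs1 (0.877).

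Other endodermal factors changed at these borders too. Of 20 listed factors 18 were tested. Among all probes tested, 23.7% were called between stomach and duodenum and 0.549% between duodenum and jejunum. The shares were 4.04% between jejunum and ileum and 15% between ileum and colon, and list counts here and below should be read against them. Between stomach and duodenum 2 were higher and 6 lower in stomach, with a median of 0.30 against 0.29 over all probes. Creb3l3, a lipid-regulating factor of the small bowel, averaged 27.3 in stomach and 816.5 in duodenum (32.0-fold lower, -5.00 ± 0.64, adjusted p = 2.05e-05). Cdx1, the relative of Cdx2, was 8.53-fold lower in stomach (-3.09 ± 0.41) and well above background in 2 of 3 stomach samples. Foxa2, a forkhead factor of endoderm, was 4.87-fold higher in stomach (2.28 ± 0.21). Hnf4a, a nuclear receptor of the absorptive epithelium, was the single factor called between duodenum and jejunum, 2.53-fold lower in duodenum. Between jejunum and ileum 2 were higher and 1 lower in jejunum: Creb3l3 was 10.6-fold and Hnf4a 3.82-fold higher, and Cdx1 2.84-fold lower. Between ileum and colon 1 was higher and 5 lower in ileum. Creb3l3 was 9.59-fold higher there, and Klf4, a factor of differentiated surface and goblet cells, was 7.0-fold and Foxa2 6.56-fold lower. Cdx1 was not called between ileum and colon (-0.21 ± 0.50, adjusted p = 0.824), and whether it differs from Cdx2 there was not tested.

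Among 6 other GATA factors and their partners, 4 were tested and none was called between any neighbouring segments, with a median of 0.59 for stomach minus duodenum. Of 12 factors of the gut wall mesenchyme, 9 were tested. Between stomach and duodenum 4 were higher in stomach, led by Nkx2-3 (7.41-fold), Isl1 (5.19-fold, 2 of 3 duodenal samples well above background) and Hand2 (2.81-fold, 1 of 3), and none was lower. Markers of fibroblasts and smooth muscle moved with them, 5 of 9 tested higher in stomach, with a summed scaled intensity of 6602 to 8421 in stomach samples and 412.5 to 663.8 in duodenal samples. Most of the stomach sum was 1 gene, Dcn, which averaged 5908 in stomach and 38.6 in duodenum. Col1a1, Vim, Des and Lum were not called. The part of fibroblasts and smooth muscle in these results, and in that of Sox2 and Gata6, was not tested.

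Genes of the gastric mucosa, and genes known to depend on CDX2, GATA4 or PDX1, were then counted at the borders. Not every border is described for each list. From stomach to colon, the borders called 23.7%, 0.549%, 4.04% and 15% of all probes. Of 14 gastric genes, 13 were higher in stomach than in duodenum (median 4.84). Atp4a and Atp4b, the subunits of the proton pump, were 1263-fold and at least 78.5-fold higher, Atp4a being well above background in 1 of 3 duodenal samples and saturated in 1 stomach sample, and Atp4b saturated in all 3. Anxa10, an annexin of gastric epithelium, was 64.5-fold higher. The gastric genes did not all stop at the border: 6 were higher in duodenum than in jejunum, led by the surface mucous cell product Gkn1 (21.6-fold), the trefoil peptide Tff2 (19.5-fold) and Gkn2 (16.7-fold), while Sox2 was near background in both.

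Of 15 intestinal genes that depend on CDX2, 10 were lower in stomach than in duodenum (median -4.69) and none higher. Si, the sucrase-isomaltase of the brush border, was 399-fold lower (-8.64 ± 0.61), the cadherin Cdh17 374-fold lower (-8.55 ± 0.38) and the peptide transporter Slc15a1 251-fold lower (-7.97 ± 0.55). Si and Slc15a1 were well above background in 2 of 3 stomach samples. Between ileum and colon, where Cdx2 was lower in ileum, 3 were higher and 2 lower in ileum (median 0.14). Si was at least 155-fold higher in ileum, and in no colon sample well above background. Slc15a1 was 30.2-fold higher. Fabp2, which binds fatty acids in enterocytes, was 7.01-fold higher, with 1 ileal sample saturated. Between jejunum and ileum 6 were higher in jejunum and none lower, led by Lct, the lactase, at 8.39-fold. Between duodenum and jejunum, where Cdx2 was not called, 3 were lower in duodenum and none higher, against 0.549% of all probes. Fabp2 was 8.56-fold lower, Guca2a 4.475-fold and Clca1 2.46-fold, each with at least 1 jejunal sample saturated.

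Of 9 genes that need GATA4 in mouse jejunum, 5 were higher in jejunum than in ileum (median 2.31) and none lower. Between ileum and colon 5 were higher in ileum, as Gata4 was. Between stomach and duodenum, where Gata4 was not called, 6 of the 9 were lower in stomach and none higher, against 23.7% of all probes. Between duodenum and jejunum, where Gata4 was not called either, 1 of the 9 was called. That gene, Dnase1, was 26.8-fold lower in duodenum, and 0.549% of all probes were called there. Duodenum and stomach gave other counts against the ileum. In duodenum, Gata4 was called 4.17-fold higher than in ileum, while 1 of the 9 was lower than in ileum and 8 were not called. That comparison called 2.71% of all probes. In stomach, Gata4 was 2.56-fold higher than in ileum and 6 of the 9 were lower, where 23.3% of all probes were called. These counts stand at unlike shares and are not set against each other. Apoa4, an apolipoprotein of chylomicrons, averaged 19086 in jejunum and 1653 in ileum (17.1-fold, 4.10 ± 0.68), with 1 jejunal sample saturated. Creb3l3, on this list as well, was 10.6-fold and Lct 8.39-fold higher. Of 5 ileal genes that GATA4 holds down in mouse jejunum, 3 were lower in jejunum than in ileum (median -1.38). Fabp6, the ileal bile acid binding protein, was saturated in all ileal samples and at least 118-fold lower in jejunum. The bile acid exporter subunit Slc51b was 6.15-fold and the uptake transporter Slc10a2 2.60-fold lower. Between ileum and colon, 4 of the 5 were higher in ileum, as Gata4 was, Fabp6 by at least 71.0-fold.

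Of 6 endocrine genes linked to PDX1 in antrum and duodenum, 4 were lower and 1 higher in stomach than in duodenum, and 2 were lower in duodenum than in jejunum, against the direction of Pdx1. Gip, the incretin, averaged 2211 in duodenum and 10708 in jejunum (4.10-fold lower, -2.03 ± 0.40), and Cck, the gallbladder hormone, was 3.05-fold lower. Secretin, Sct, was 54.2-fold lower in stomach than in duodenum. Between jejunum and ileum 5 of the 6 were higher in jejunum, with Gip 14.9-fold, Cck 8.06-fold and gastrin, Gast, 5.34-fold higher.

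**Figure D5:**
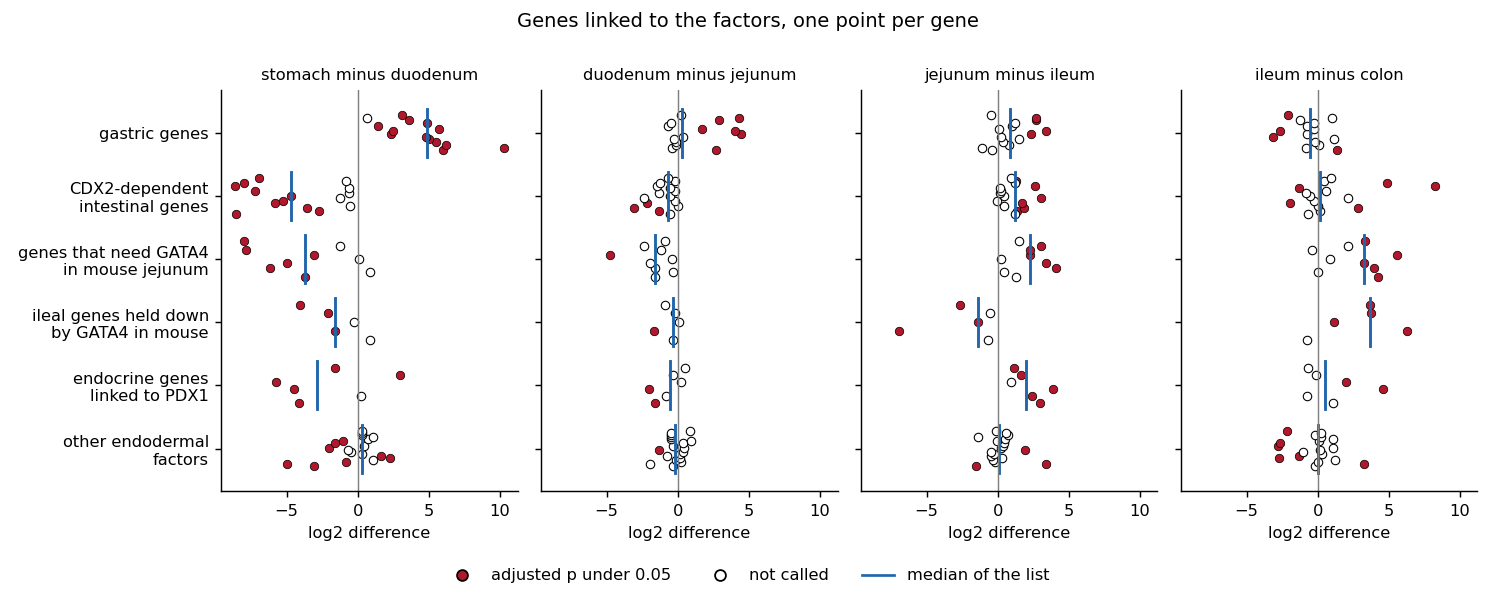
Log2 differences between neighbouring segments, proximal minus distal, one point per tested gene in 6 lists, filled where limma's adjusted p was under 0.05, with blue bars at the list medians. Gastric genes lay to the right for stomach minus duodenum (median 4.84) and CDX2-dependent genes to the left (median -4.69).

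Markers of the segments and of other cells were set beside these results. Summed markers of each segment were highest in the samples of the segment they mark, with no overlap, over 2 colon samples for the colon list, since a flagged spot left out the other. Pancreatic markers, of a tissue that also makes Pdx1, summed to 1146 to 1207 in duodenum and 1251 to 1679 in jejunum, 10 of 11 having a probe. The sum includes Gcg, the glucagon gene, which gut endocrine cells express too and which was 5.59-fold lower in duodenum than in jejunum. The acinar carboxypeptidase Cpb1 moved with Pdx1, at 55.4 in duodenum and 9.65 in jejunum (6.92-fold, 2.79 ± 0.42, adjusted p = 0.0033), and the trypsinogen Prss1 averaged 262.6 in duodenum and 138 in jejunum without a call (adjusted p = 0.239). Another acinar gene, Cpa1, was well above background in 1 of 3 duodenal samples and in no jejunal or ileal sample, and was not called between duodenum and jejunum. Among the 10 pancreatic markers tested there, 1 was called higher and 1 lower in duodenum, with a median of 0.20, where 0.549% of all probes were called. Cpb1 averaged 48.7 in stomach, where Pdx1 was low. The part of pancreatic cells in the Pdx1 result was not tested. Markers of the squamous forestomach, whose cells also express Sox2, summed to 728.8 to 745.7 in the 2 stomach samples with every probe and 476.6 to 879 in duodenum, and of the 5 tested none was called between stomach and duodenum. Enteric neuron and glia markers summed to 631 to 724 in stomach and 283 to 482 in duodenum, and 3 of 6 tested were called higher in stomach, as Sox2 was: Uchl1 3.63-fold, Elavl4 3.48-fold and the glial factor Sox10 3.06-fold (adjusted p = 0.0087). S100b was in no stomach sample well above background, and the part of these cells in the Sox2 result was not tested. Of 6 epithelial markers, 4 were called lower in stomach than in duodenum, beside the Cdx2 step there, where 23.7% of all probes were called. Cldn7 (23.7-fold), Epcam (8.11-fold) and Krt8 (4.23-fold) led them, and Cldn7 was also one of the probes most like Cdx2. Cdh1 (0.485) and Krt18 (0.096) leaned higher in stomach without a call. The 6 markers summed to 12315 to 19412 in stomach and 17285 to 25664 in duodenum. Their sums were 14501 to 19813 in ileal samples and 41295 to 50670 in colon samples. Beside the second Cdx2 step 3 of 6 were called lower in ileum, where 15% of all probes were called. The part of epithelial cells in either step was not tested.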

How the data were processed

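RNA of 15 mucosal samples, 3 per segment, was read on Agilent arrays, 1 dye channel per sample. Per the file headers, the deposited intensity is the scanner software's processed signal, from which it had subtracted background and which it had normalised between dyes. The deposited value table held the same intensity within 0.02 on the log2 scale. The software version, per the file headers, was 8.5.1.1 in the stomach and 10.1.1.1 in the colon files. It was 9.5.3.1 in ileum 2 and 3, and 9.5.1.1 in the remaining files. The background multiplier of the well-above-background flag was 2.6 for stomach and 13 for duodenum, jejunum and ileum. Stomach arrays were scanned at a resolution of 10 µm and all others at 5 µm, so resolution and segment cannot be told apart in comparisons with stomach. Such differences can move dim probes, and the number of arrays limits the precision.

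From the deposited intensity, log2 values minus the 75th percentile of each sample were computed, with spots flagged as non-uniform or population outliers left out. Probes well above background in all 3 samples of at least 1 segment were tested with limma 3.58.1 (R 4.3.3). The model held fixed terms for segment and dye, a random slide block (correlation 0.35) and an intensity trend, and left 9 residual degrees of freedom. Tests were two-sided with Benjamini-Hochberg adjustment over all probes of a comparison. Limma called 0 probes for dye (713 at an unadjusted p under 0.05). The fit was tested on simulated data. The brightest probe stood for a gene. Where a gene was in no sample of its dimmer side well above background, or saturated in all samples of its brighter side, the fold is a bound. Folds and bounds are ratios of means taken on the log2 scale. Members, lists and markers were chosen with earlier results of these data known. The named genes are the members, the 3 probes most like each by Pearson's r, and the 3 called genes with the largest difference in each list and comparison. Alternatives were other background corrections, scalings, filters, blocks and fits and leaving out each sample. No genome was used.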

Additional observations from a re-analysis of the deposited data

How the results depend on the processing

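Of the 37 called member differences, 986 of 1066 alternatives kept the call and 80 lost it, with no change of direction among called ones, and most of the lost calls belonged to Gata6. Differences not called with all samples gained a call 17 times. Members called between ileum and colon fell to 1 with normexp correction and 1 in a fit on those 2 segments. Leaving out each sample gave 3 to 3 members between stomach and duodenum, 0 to 1 between duodenum and jejunum, 2 to 3 between jejunum and ileum, 2 to 2 between ileum and colon and 5 to 5 in the F test, and 19 to 22 called differences of members over the 6 pairs of segments that are not neighbours. It gave 4889 to 11197 called probes between stomach and duodenum, 36 to 1480 between duodenum and jejunum, 509 to 4306 between jejunum and ileum and 3356 to 6748 between ileum and colon, against 9202, 213, 1567 and 5837 with all samples. The samples whose absence moved these counts by over 1.5 times were stomach 3 and duodenum 1 for stomach and duodenum, all 3 of duodenum, jejunum 2 and 3 and colon 3 for duodenum and jejunum, stomach 1, duodenum 3, jejunum 1 and 2 and ileum 1 and 3 for jejunum and ileum, and colon 1 for ileum and colon. Called probes between duodenum and jejunum numbered 347 without the dye term, 57 without the slide block, 137 without the intensity trend and 77 in a fit on those segments. Between jejunum and ileum they were 786 with scan day as block, 820 without the trend and 221 in a fit on those segments, between stomach and duodenum 5001 with scan day as block, and between ileum and colon 2710 in a fit on those segments. The cause was not tested, beyond fewer samples in the reduced fits. Normexp used median signals, since the colon files hold no mean signal in the dye channels used. Members detected in all samples of a segment numbered 21 of the 30 pairs of member and segment by the scanner flag, 24 by the 95th and 20 by the 99th percentile of negative controls.

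Replicate numbers did not pair samples: same-numbered deviations from the segment means correlated at -0.415 to 0.287 (median -0.019, 30 pairs). With the replicate block, 96 probes were called between duodenum and jejunum and 765 between jejunum and ileum.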

Other observations

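Some listed genes had higher means in stomach and colon than in the segments between them, and Foxa3 and the colonic levels below were singled out after their values were seen. Foxa2 averaged 2227 in stomach, 449.6 in duodenum, 408.1 in jejunum, 340.5 in ileum and 2125 in colon, in scaled intensity. Foxa3, a related forkhead factor, averaged 153.9, 50.7, 83.2, 114.1 and 277.2 in the same order, and was called higher in stomach than in duodenum (1.65 on the log2 scale) and lower in ileum than in colon (-1.28). The stomach mean of Foxa3 lay nearer that of ileum than that of duodenum, and stomach minus ileum is not given here. Among gastric genes, 3 were lower in ileum than in colon. Ctse, the aspartic protease cathepsin E, was 8.93-fold lower in ileum and Vsig1, an adhesion protein of gastric epithelium, 4.26-fold lower. Gkn2 was 6.37-fold lower, but its duodenal and jejunal means of 1588 and 116.9 lay above that of 58.5 in colon. Ctse averaged 6509 in stomach and 1337 in colon, against 147.7 to 232.4 in the small bowel segments.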
